A study of Homo sapiens with 8 samples.

Results

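The genes described are 9 enzymes of the pentose phosphate pathway and of NADPH supply, PGLS, PGD, RPIA, RPE, TKT, TALDO1, ME1, ME2 and IDH1. They were chosen by name from a table of 62649 genes, all 9 were found, and all 9 were among the 19122 genes that reached 1 TPM in 2 or more libraries and were tested. RNA sequencing was done on AsPC-1 and PANC-1, both human pancreatic cancer cell lines labelled as wild type, cultured for 3 days in a methylcellulose medium in which cells form spheroids and then exposed for 24 h. In each line there were 4 groups, namely vehicle, 10 µM roseoflavin, 1 nM trametinib, and both compounds at those doses. Roseoflavin is an antibiotic analogue of riboflavin, and trametinib inhibits the MEK kinases that activate ERK. Each of the 8 groups was 1 library, so no treatment had a replicate, and the labels do not say whether libraries came from separate cultures. Every error below comes from a model over the 8 libraries. It measures only how far they depart from that model, and not a spread between replicates.

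NADPH is the electron donor of the reductases that keep glutathione and thioredoxin reduced and of fatty acid and sterol synthesis. The oxidative branch of the pentose phosphate pathway makes it from glucose 6-phosphate, and the non-oxidative branch interconverts the resulting pentoses with the sugars of glycolysis. Cytosolic malic enzyme and cytosolic isocitrate dehydrogenase are further sources. The transcription factor NRF2 is known to drive several of these genes. Of the 9 proteins, PGD, ME1 and IDH1 make NADPH themselves. PGLS, RPIA, RPE, TKT and TALDO1 handle the sugars without making it, and ME2 is a mitochondrial enzyme that works mainly with NAD, so the description of all 9 as makers of NADPH holds for the pathways and not for each protein.

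All 9 are protein-coding genes. On GRCh38, with gene models of GENCODE release 29, PGD lies on the plus strand at chr1:10398592-10420144, PGLS on the plus strand at chr19:17511629-17521288, RPIA on the plus strand at chr2:88691644-88750935 and RPE on the plus strand at chr2:210002565-210022259. TALDO1 lies on the plus strand at chr11:747329-765024, and TKT on the minus strand at chr3:53224707-53256052. ME1 lies on the minus strand at chr6:83210389-83431071, ME2 on the plus strand at chr18:50878734-50954257 and IDH1 on the minus strand at chr2:208236227-208266074. On the opposite strand IDH1 overlaps IDH1-AS1 (1.04 to 3.87 TPM over the 8 libraries), RPE overlaps KANSL1L (3.09 to 4.65 TPM) and PGLS overlaps AC010618.3 (0.282 to 1.70 TPM). The library kit keeps the strand, but whether the counting used it is not given in the sources used here. Processed copies named for PGD, RPIA, RPE and ME2 had at most 0.077 TPM in any library.

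Promoter windows from RefSeq (GRCh38.p14, 250 bases before to 50 after a start) were found for all 9 genes, with 10 windows because IDH1 has 2. They were searched on both strands for TGACNNNGC, the core of the antioxidant response element that NRF2 binds with small MAF proteins. This motif was in the windows of 4 of the 9 genes (PGD, RPE, ME1 and IDH1) and in 13.3% of all 35116 windows in the table. The windows of ME1, IDH1 and TKT are shown because these genes had the highest roseoflavin estimates in PANC-1, and that of RPE because it had among the lowest. Of the 2 IDH1 windows only the second, which holds the motif, is shown, and the first had no match to it. Each runs 5′ to 3′ on the strand of its gene, and capitals mark TGACNNNGC on either strand.
ME1 (chr6:83431002-83431301, minus strand): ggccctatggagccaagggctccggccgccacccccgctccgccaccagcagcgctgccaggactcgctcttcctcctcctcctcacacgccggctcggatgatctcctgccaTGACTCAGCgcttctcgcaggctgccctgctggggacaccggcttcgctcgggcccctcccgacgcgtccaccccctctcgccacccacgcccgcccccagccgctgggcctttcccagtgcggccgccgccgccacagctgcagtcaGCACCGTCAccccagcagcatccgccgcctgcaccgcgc
IDH1, second window (chr2:208255022-208255321, minus strand): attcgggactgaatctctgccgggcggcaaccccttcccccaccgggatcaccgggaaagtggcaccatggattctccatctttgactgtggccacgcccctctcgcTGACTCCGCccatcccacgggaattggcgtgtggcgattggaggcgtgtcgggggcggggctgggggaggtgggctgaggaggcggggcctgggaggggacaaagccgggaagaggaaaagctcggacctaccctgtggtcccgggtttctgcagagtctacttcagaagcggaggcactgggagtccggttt
TKT (chr3:53255973-53256272, minus strand): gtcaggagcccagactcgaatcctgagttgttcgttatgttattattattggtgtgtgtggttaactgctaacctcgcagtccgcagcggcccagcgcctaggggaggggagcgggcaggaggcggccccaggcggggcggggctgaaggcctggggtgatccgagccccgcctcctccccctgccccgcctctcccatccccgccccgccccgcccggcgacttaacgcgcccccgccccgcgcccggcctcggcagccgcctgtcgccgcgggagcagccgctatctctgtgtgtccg
RPE (chr2:210002388-210002687, plus strand): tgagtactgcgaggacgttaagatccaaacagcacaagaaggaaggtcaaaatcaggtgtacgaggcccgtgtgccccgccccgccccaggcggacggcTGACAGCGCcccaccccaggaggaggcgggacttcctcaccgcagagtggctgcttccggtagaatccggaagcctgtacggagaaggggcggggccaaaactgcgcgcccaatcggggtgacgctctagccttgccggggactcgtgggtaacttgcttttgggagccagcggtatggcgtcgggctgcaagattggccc
The first ME1 match, TGACTCAGC, starts 137 bases before the start and holds TGACTCA, a match to the AP-1 motif TGANTCA, which 7.71% of all windows hold and which no other of the 10 windows has. The second ME1 match is on the opposite strand, 11 bases after the start. IDH1 has TGACTCCGC 143 bases before the start of its second window, RPE has TGACAGCGC 151 bases before, and PGD has TGACATTGC on the opposite strand 201 bases before. TKT had no match in its window, while the GC box GGGCGG was in all 10 windows and in 45.0% of all windows. These matches describe letters in a window and were not set against binding.

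Values are in TPM, a unit scaled to gene length and to a fixed library sum of 1000000, in which levels of different genes can be compared per length. Reads per library cannot be recovered from it, so the depth is unknown and the precision of single values is too. The number of genes at or above 1 TPM was 15280 to 15580 in the AsPC-1 libraries and 17105 to 17201 in the PANC-1 libraries. The mitochondrial genome's transcripts made up 41.2% to 44.1% of each AsPC-1 library and 22.8% to 25.6% of each PANC-1 library, and because the sum is fixed this share moves every other value. The libraries are of bulk RNA, in which fewer cells of a kind and less RNA per cell cannot be told apart. The 6 epithelial markers summed to 9167 to 10555 TPM in AsPC-1 and 2709 to 3029 TPM in PANC-1, with CEACAM6 at or under 0.097 TPM in PANC-1. The 4 mesenchymal markers summed to 668 to 825 TPM in AsPC-1 and 3155 to 3416 TPM in PANC-1, with CDH2 listed at 0 in AsPC-1. VIM made most of these mesenchymal sums, at 660 to 816 and 3132 to 3391 TPM. FN1 was at or under 0.026 TPM in AsPC-1 and at 0.367 to 0.533 TPM in PANC-1. Of markers of other cells, PTPRC, PECAM1, VWF, CDH5 and DCN were at or under 0.083 TPM and CD3E was listed at 0 in all 8 libraries, while CD68 was at 108 to 139 TPM in both lines and LUM, a fibroblast marker, at 103 to 146 TPM in AsPC-1. PDGFRB, also a fibroblast marker, was at 0.042 to 0.122 TPM in AsPC-1 and 0.74 to 0.892 TPM in PANC-1. Whether cell types had a part in the differences between the lines was not tested.

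The order of the levels was similar at its top and its bottom in the lines. PGD, the dehydrogenase that ends the oxidative branch, was at 183 to 218 TPM in the AsPC-1 libraries and 168 to 203 TPM in the PANC-1 libraries. TALDO1, which passes carbon units between sugar phosphates in the non-oxidative branch, followed at 173 to 196 and 161 to 171 TPM. These ranges overlapped within each line, but within a library PGD was above TALDO1 in all 4 of PANC-1 and in 3 of 4 of AsPC-1. PGD and TALDO1 together made 47.6% to 54.2% of the summed TPM of the 9 genes. In AsPC-1, IDH1 (98.0 to 122 TPM) and TKT (96.5 to 110 TPM) came next and overlapped, followed by PGLS (53.7 to 57.2 TPM), RPE (35.3 to 36.2 TPM) and RPIA (27.3 to 32.3 TPM), whose ranges did not overlap. ME1 (3.88 to 4.91 TPM) and ME2 (2.05 to 2.34 TPM) were the lowest there. In PANC-1, TKT (95.1 to 145 TPM) was the third, RPE (70.7 to 74.6 TPM) overlapped IDH1 (55.8 to 73.0 TPM), and ME1 (27.3 to 49.9 TPM) overlapped PGLS (29.9 to 31.5 TPM) and RPIA (24.4 to 29.8 TPM). ME2 was again the lowest, at 6.79 to 7.30 TPM.

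**Figure D1:**
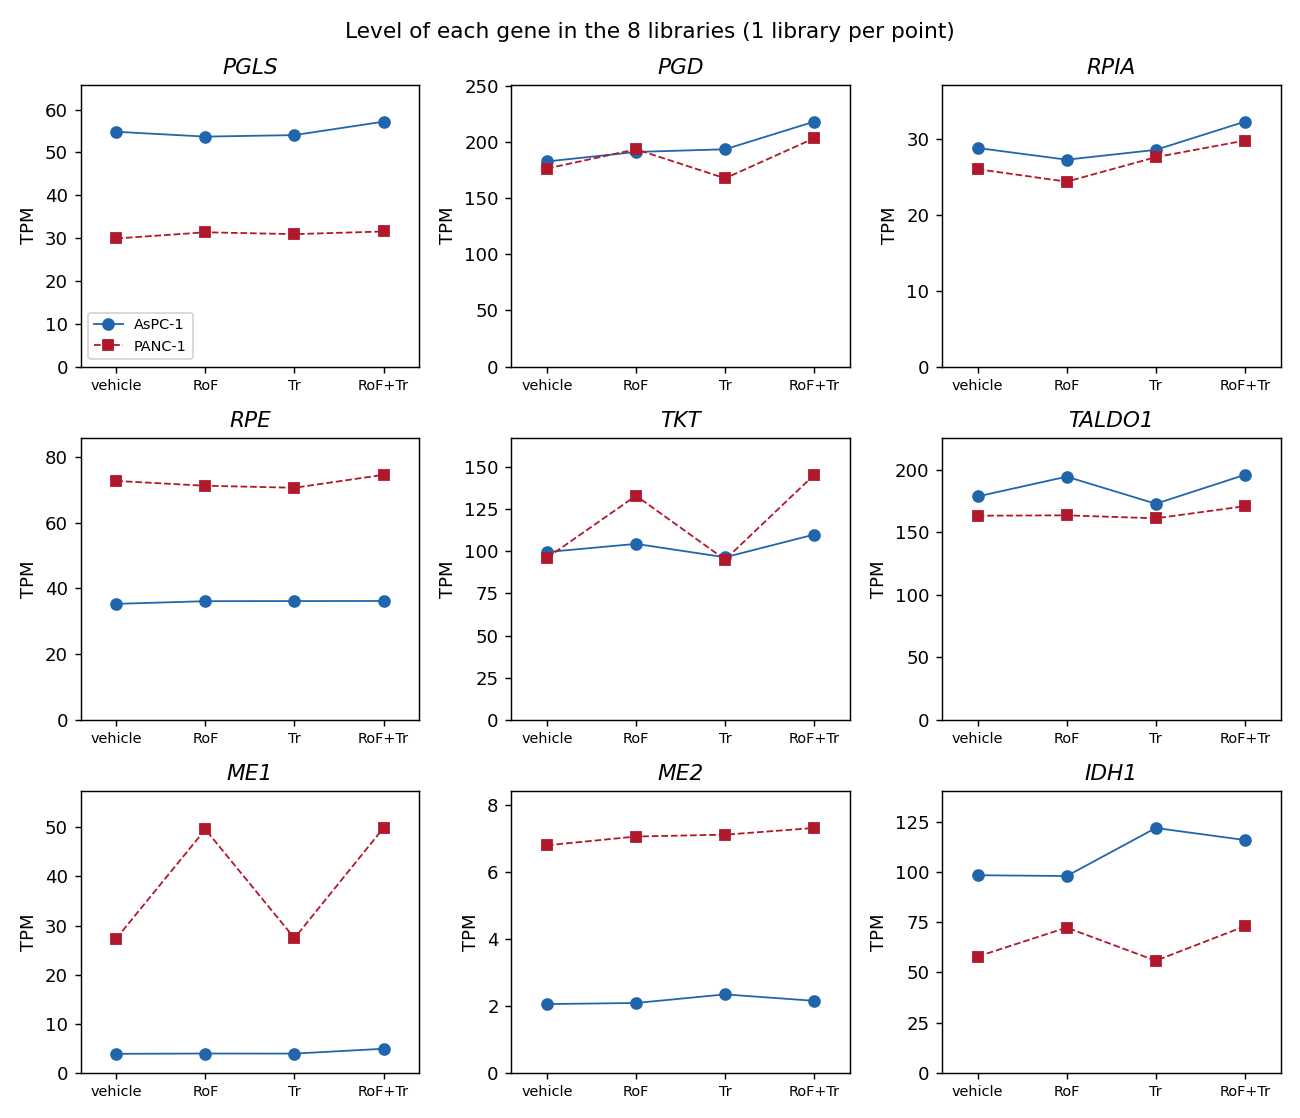
TPM of each of the 9 genes (vertical axes, from 0) under vehicle, roseoflavin (RoF), trametinib (Tr) and both (RoF+Tr), with 1 point per library, circles for AsPC-1 and squares for PANC-1, and lines that only join the points of a cell line. In PANC-1, ME1 is at 49.6 and 49.9 TPM with roseoflavin and at 27.3 and 27.4 TPM without it.

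The first comparison set 4 PANC-1 libraries against 4 AsPC-1 libraries under the same 4 treatments. ME1, which turns malate into pyruvate and makes NADPH in the cytosol, was 7.38-fold higher in PANC-1 on the scale of TPM + 1. ME2, its mitochondrial relative, was 2.55-fold higher, and RPE, the epimerase that makes xylulose 5-phosphate, 1.99-fold higher. PGLS, the lactonase of the oxidative branch, IDH1 and TALDO1 were lower in PANC-1. PGD, TKT and RPIA, the isomerase that makes ribose 5-phosphate, did not pass the test.

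The model was fitted with limma on log2(TPM + 1), with both compounds as terms, and p-values were adjusted over all 19122 genes by the Benjamini-Hochberg method. The difference, PANC-1 minus AsPC-1, was 2.88 for ME1 (SE 0.149, adjusted p 2.77e-06), 1.35 for ME2 (SE 0.0509, adjusted p 5.94e-07) and 0.99 for RPE (SE 0.0333, adjusted p 3.59e-07). It was -0.81 for PGLS (SE 0.0344, adjusted p 1.06e-06), -0.74 for IDH1 (SE 0.101, adjusted p 0.000437) and -0.17 for TALDO1 (SE 0.0387, adjusted p 0.00572). For these 6 genes the 4 libraries of one line lay wholly above the 4 of the other. The same held for 59.4% of all genes tested with PANC-1 higher and for 19.8% with PANC-1 lower. Of all genes tested, 83.8% passed, 62.3% as higher and 21.5% as lower in PANC-1, against 6 of the 9, with 3 higher and 3 lower. The lines thus differed at most genes, and the share among the 9 is not above it.

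The direction of the TKT difference, and whether PGD, RPIA and TKT passed, depended on the scaling. The median of all genes tested was 0.55 higher in PANC-1 in TPM as deposited, 0.22 higher after rescaling without mitochondrial transcripts and 0.04 higher after quantile normalization. Relative to that median, in TPM as deposited, ME1, ME2 and RPE stood above it and the other 6 genes below it. Without mitochondrial transcripts all 9 genes passed, with PGD at -0.47, RPIA at -0.50 and TKT at -0.22, and under quantile normalization all 9 passed with -0.42, -0.61 and -0.26 for these. TKT went from a difference of 0.17 (SE 0.0903, limma adjusted p 0.123) to these negative values. ME1 stayed at 2.61 and 2.35 and PGLS at -1.20 and -1.29 under the same scalings.

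Neighbouring genes of the pathway, from lists chosen by function, also differed between the lines. Of 8 other pentose phosphate genes tested, 5 were higher and 2 lower in PANC-1 by limma with adjustment over all genes, at a median of 0.37 against 0.55 over all genes tested. PRPS1, which turns ribose 5-phosphate into the precursor of nucleotides, was at 25.6 to 27.9 TPM in AsPC-1 and 102 to 111 TPM in PANC-1. H6PD was at 5.58 to 6.74 and 32.9 to 42.6 TPM, and DERA, a deoxyribose phosphate aldolase, at 37.4 to 42.8 and 19.2 to 21.1 TPM. The ranges of these 3 genes did not overlap between the lines. Such a gap was also found for 59.4% of all genes tested with PANC-1 higher and for 19.8% with PANC-1 lower. TIGAR, a phosphatase that directs glucose 6-phosphate toward the pathway, was 1.01 higher in PANC-1 on the log2 scale. By limma, 62.3% of all genes tested passed as higher and 21.5% as lower, and the list counts are to be read against these shares. In the other lists the counts higher and lower were 8 and 2 of 10 other genes that make NADPH or phosphorylate NAD, 5 and 7 of 13 NADPH-using reductases, 11 and 5 of 18 genes of the NRF2 system, 9 and 1 of 12 around the tricarboxylic acid cycle and 12 and 1 of 14 in glycolysis.

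**Figure D2:**
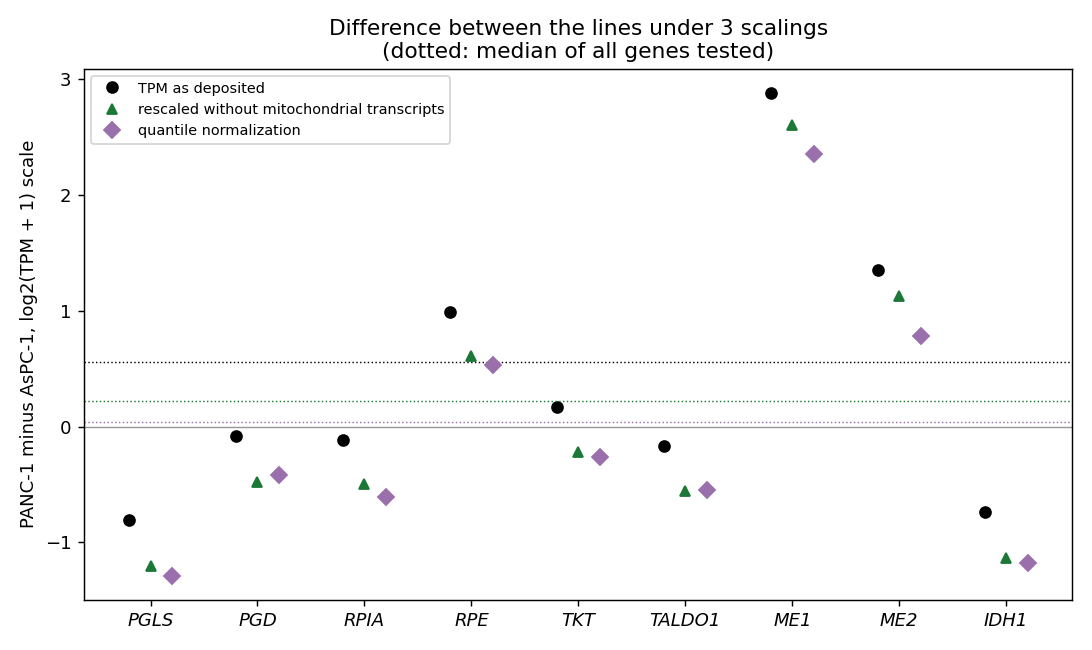
Difference between the lines (PANC-1 minus AsPC-1, log2(TPM + 1) scale, vertical axis) for each gene under 3 scalings, with dotted lines at the median of all genes tested. TKT is above 0 in TPM as deposited (0.17) and below 0 under both other scalings, while ME1, ME2 and RPE are above 0 under all 3.

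The second comparison was of roseoflavin within PANC-1, comparing the 2 libraries with roseoflavin and the 2 without. The summed TPM of the 9 genes was 657 with vehicle and 746 with roseoflavin, and 644 with trametinib and 786 with both. The malic enzyme ME1, the transketolase TKT, the dehydrogenase PGD and IDH1, which makes NADPH from isocitrate in the cytosol and peroxisome, had the higher estimates, and the other 5 genes were between 0.01 and 0.05 on the log2 scale. None of the 9 passed the adjusted threshold, as none of the 19122 genes did with limma (0.0%), where 2074 genes, 10.8%, had an unadjusted p under 0.05.

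ME1 was at 27.3 TPM with vehicle, 49.6 with roseoflavin, 27.4 with trametinib and 49.9 with both compounds. Both libraries with roseoflavin were high, both without it were low, and members of each pair differed by less than 1 TPM. The roseoflavin estimate was 0.84 (SE 0.0767, limma adjusted p 0.245), and ME1 ranked 36 by p among all genes tested. In direct ratios, ME1 was 1.81-fold of vehicle after roseoflavin and 1.82-fold of trametinib alone after both.

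TKT, which passes carbon units between sugar phosphates and links pentoses to glycolysis, was at 96.1 TPM with vehicle, 133 with roseoflavin, 95.1 with trametinib and 145 with both. The pairs with and without roseoflavin did not overlap, and the estimate was 0.54 (SE 0.0578, limma adjusted p 0.251). IDH1 was at 57.9, 72.3, 55.8 and 73.0 TPM in the same order, again without overlap. Its estimate was 0.35 (SE 0.0413, limma adjusted p 0.252). PGD was at 176, 193, 168 and 203 TPM, with no overlap and an estimate of 0.21 (SE 0.0559, limma adjusted p 0.406), which was 0.13 without the library with trametinib or that with both compounds. The estimates of these 3 genes were smaller than that of ME1, and the differences between genes were not tested.

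Of the other 5, PGLS (29.9 and 30.9 TPM without roseoflavin, 31.4 and 31.5 with it) and TALDO1 (163 and 161 TPM without, 164 and 171 with) did not overlap either, at estimates of 0.05 and 0.04. RPIA (26.0 and 27.6 TPM without, 24.4 and 29.8 with), RPE (72.7 and 70.7 without, 71.3 and 74.6 with) and ME2 (6.79 and 7.10 without, 7.05 and 7.30 with) overlapped. The 95% interval of the roseoflavin estimate was -0.24 to 0.26 for RPIA, -0.10 to 0.15 for RPE and -0.14 to 0.23 for ME2. Changes within these intervals are not excluded. The intervals are before adjustment over genes, and their bounds are not a limit of detection. Both roseoflavin libraries were thus above both others for 6 of the 9 genes in TPM as deposited, against 22.9% of all genes tested. After rescaling without mitochondrial transcripts, PGLS (40.20 and 41.11 TPM without roseoflavin, 41.10 and 40.86 with it) overlapped. So did TALDO1 (219.7 and 214.5 TPM without, 214.6 and 221.6 with). The share of all genes was not counted on that scale. PGD, TKT, ME1 and IDH1 were higher at an unadjusted p under 0.05, against 5.84% of all genes tested. The median estimate was 0.05 over the 9 and 0 over all genes tested.

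**Figure D3:**
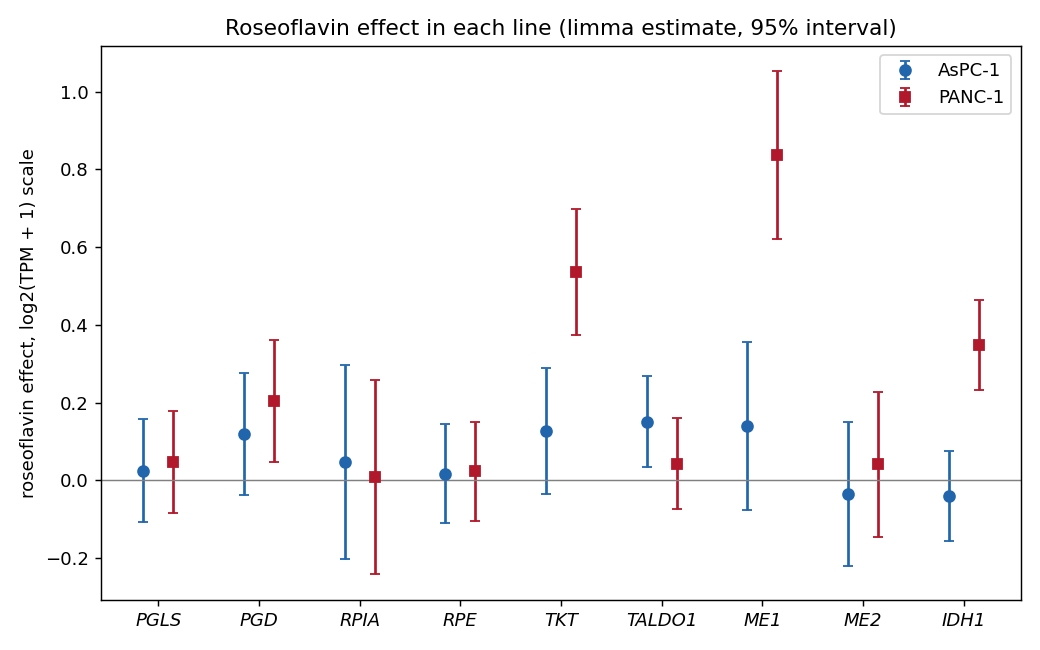
Roseoflavin effect on each gene (vertical axis, log2(TPM + 1) scale) in AsPC-1 (circles) and PANC-1 (squares), with the limma estimate and its 95% interval from the model over 8 libraries. In PANC-1 the intervals of ME1 (0.62 to 1.05), TKT (0.37 to 0.70), IDH1 (0.23 to 0.46) and PGD (0.05 to 0.36) lie above 0 before adjustment over genes.

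In a smaller set of genes 3 of these values passed. The set was limited to RefSeq mRNAs averaging 10 TPM or more, 7907 genes that include 8 of the 9, and was chosen after the data had been seen. There 3 of the 8 passed as higher in PANC-1 with roseoflavin, against 1.48% of the genes tested. They were ME1 (limma adjusted p 0.000828), TKT (0.00205) and IDH1 (0.0123), and PGD did not pass (0.129). ME2 was under the mean and was not tested there, and ME1 met it only through PANC-1, with a mean of 38.6 TPM there and 4.16 TPM in AsPC-1. With the limit on the mean alone, which left 9368 genes, none of the members tested passed, and ME1 had a limma adjusted p of 0.0870. Mitochondrial transcripts took less of the PANC-1 libraries with roseoflavin, 23.7% against 25.6% with vehicle and 22.8% against 24.8% with trametinib. After rescaling without them the estimates were 0.81 for ME1, 0.50 for TKT, 0.31 for IDH1 and 0.17 for PGD.

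Ratios of 2 genes within a library are not moved by a factor common to that library. The ratio of ME1 to ME2 TPM in PANC-1 was 4.03 with vehicle and 3.86 with trametinib, and 7.03 with roseoflavin and 6.83 with both. In AsPC-1 it was 1.89, 1.68, 1.89 and 2.28 in the same order. The ratio of TKT to TALDO1, the enzyme pair of the non-oxidative branch, was 0.588 and 0.589 without roseoflavin in PANC-1 and 0.812 and 0.850 with it. It stayed between 0.536 and 0.560 in the 4 AsPC-1 libraries. Both ratios were higher in the PANC-1 libraries with roseoflavin, and neither was tested.

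**Figure D4:**
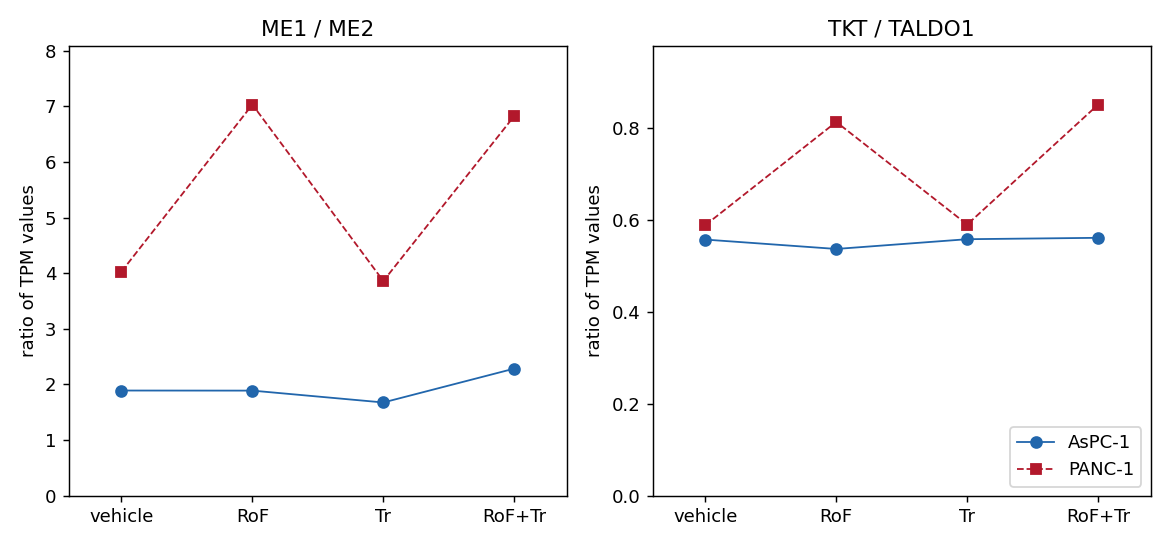
Ratio of ME1 to ME2 and of TKT to TALDO1, from TPM within each library (vertical axes, from 0), by treatment (RoF roseoflavin, Tr trametinib), with circles for AsPC-1 and squares for PANC-1. Both ratios are higher in the PANC-1 libraries with roseoflavin (7.03 and 6.83, 0.812 and 0.850) than in those without it.

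The same comparison within AsPC-1 gave smaller estimates, except for TALDO1 (0.15 against 0.04 in PANC-1) and RPIA (0.05 against 0.01). TALDO1 was at 179 TPM with vehicle, 195 with roseoflavin, 173 with trametinib and 196 with both, and its estimate was 0.15 (SE 0.0414, limma adjusted p 0.396). TKT, at 99.6, 104, 96.5 and 110 TPM, had an estimate of 0.13 (SE 0.0578, limma adjusted p 0.498). ME1, at 3.88, 3.94, 3.92 and 4.91 TPM, had one of 0.14 (SE 0.0767, limma adjusted p 0.557), and only the library with both compounds stood apart. Without that library or the one with trametinib the estimates were 0.07 for TKT and 0.02 for ME1, and 0.06 for PGD. PGD was at 183, 191, 193 and 218 TPM, with an estimate of 0.12 (SE 0.0559, limma adjusted p 0.510), and its pairs overlapped. IDH1 was at 98.4 and 98.0 TPM without trametinib and 122 and 116 TPM with it, lower with roseoflavin in both pairs, at an estimate of -0.04 (SE 0.0413, limma adjusted p 0.769). None of the 9 genes and none of all genes tested passed (0.0%; 2163 genes, 11.3%, had an unadjusted p under 0.05 with limma), and none of the 8 members in the RefSeq mRNA set did, against 2.06% of that set. TKT, TALDO1 and ME1 had both roseoflavin libraries above both others, 3 of 9 against 10.6% of all genes tested, and TALDO1 alone was higher at an unadjusted p under 0.05, against 2.75%. Mitochondrial transcripts took 44.1% of the AsPC-1 library with roseoflavin against 41.2% with vehicle, and 41.3% with both compounds against 42.2% with trametinib. After rescaling without them, PGLS (93.2 and 93.6 TPM without roseoflavin, 96.0 and 97.5 with it) also had such a gap. So did PGD (310 and 335 TPM without, 342 and 372 with).

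Whether the lines differed in their roseoflavin response was tested directly, as the PANC-1 effect minus the AsPC-1 effect. The difference was 0.70 for ME1 (SE 0.108, limma adjusted p 0.336), 0.41 for TKT (SE 0.0818, limma adjusted p 0.339) and 0.39 for IDH1 (SE 0.0584, limma adjusted p 0.336). It was 0.09 for PGD (SE 0.0790, limma adjusted p 0.696) and -0.11 for TALDO1 (SE 0.0586, limma adjusted p 0.537). No gene passed in this model (0.0% of all genes tested, 2227, or 11.6%, at an unadjusted p under 0.05 with limma). ME1, TKT and IDH1 were the 3 members with a higher effect in PANC-1 at an unadjusted p under 0.05, against 8.11% of all genes tested. In the 7907 RefSeq mRNA genes all 3 passed, with limma adjusted p of 0.0120, 0.0360 and 0.0289 for ME1, TKT and IDH1, where 2.0% of the genes tested passed. That set was chosen after the data had been seen, so the 3 calls are given as a description. ME1 also entered it only through the line in which it is high.

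Over both lines, 4 libraries with roseoflavin and 4 without, the roseoflavin estimates were led by ME1 and TKT. The estimate was 0.49 for ME1 (SE 0.149, limma adjusted p 0.659), 0.33 for TKT (SE 0.0903, limma adjusted p 0.659), 0.16 for PGD (SE 0.0495, limma adjusted p 0.659) and 0.10 for TALDO1 (SE 0.0387, limma adjusted p 0.686). None of the 9 and none of all genes tested passed (0.0%, with 1358 genes, 7.1%, at an unadjusted p under 0.05 with limma). These 4 members were higher at an unadjusted p under 0.05, against 2.03% of all genes tested.

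Of the trametinib estimates of the 9 genes within a line, that of IDH1 in AsPC-1 was the highest. There IDH1 was at 98.4 TPM with vehicle, 98.0 with roseoflavin, 122 with trametinib and 116 with both, so both libraries with trametinib were high. The trametinib estimate was 0.27 (SE 0.0413, limma adjusted p 0.271). It passed among the 7907 RefSeq mRNA genes (adjusted p 0.0253 with limma), where 4.2% of the genes tested did. That set was chosen after the data had been seen, so this call is given as a description. IDH1 was the 1 member higher with trametinib in AsPC-1 at an unadjusted p under 0.05, against 9.42% of all genes tested. In PANC-1 the trametinib estimate for IDH1 was -0.02 (SE 0.0413), and the difference between the lines, PANC-1 minus AsPC-1, was -0.29 (SE 0.0584, limma adjusted p 0.493). In this difference no gene passed (0.0%; 1854 genes, 9.7%, had an unadjusted p under 0.05 with limma). IDH1 was the 1 member at that level, with a lower effect in PANC-1, against 6.01% of all genes tested with a lower and 3.68% with a higher effect. PGD, RPE, ME2 and IDH1 had both trametinib libraries above both others in AsPC-1, 4 of 9 against 24.0% of all genes tested, and RPIA and ME2 did in PANC-1, against 16.1%. After rescaling without mitochondrial transcripts, PGD (310 and 342 TPM without trametinib, 335 and 372 with it) overlapped in AsPC-1. RPE (60.0 and 64.5 without, 62.6 and 61.6 with) and ME2 (3.49 and 3.73 without, 4.05 and 3.66 with) overlapped there too. IDH1 kept its gap, and RPIA (49.0 and 48.8 without, 49.5 and 55.1 with) gained one. In PANC-1, RPIA and ME2 kept theirs. None of the 9 passed the adjusted threshold for trametinib in either line, and none of all genes tested did (0.0%, with 2691 genes in AsPC-1, 14.1%, and 919 in PANC-1, 4.81%, at an unadjusted p under 0.05 with limma). None of the 9 was at an unadjusted p under 0.05 in PANC-1, where 2.46% of all genes tested were higher at that level.

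RPIA was the gene among the 9 in which the combination departed most from the sum of the compounds. It was at 28.8 TPM with vehicle, 27.3 with roseoflavin, 28.6 with trametinib and 32.3 with both in AsPC-1, and at 26.0, 24.4, 27.6 and 29.8 TPM in PANC-1. The library with both compounds was the highest and that with roseoflavin the lowest in each line. The interaction of the compounds was 0.22 (SE 0.0815, limma adjusted p 1.00, unadjusted p 0.0382), and 2.8% of all genes tested had an unadjusted p under 0.05, with 0 genes past the adjusted threshold (0.0%; 536 unadjusted with limma). RPIA was the 1 member at that level in the interaction (1.8% of all genes tested were higher) and in the trametinib effect over both lines, which was 0.15 (SE 0.0566, limma adjusted p 0.861). In that effect no gene passed (0.0%), 938 genes, 4.91%, had an unadjusted p under 0.05 with limma, and 3.12% of all genes tested were higher at that level.

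Set against the vehicle library of the line, 1 library against 1, the members at least 25% higher on the scale of TPM + 1, or lower by the same factor, were all in PANC-1 and all higher. They were TKT and ME1 with roseoflavin (2 of 9, against 6.41% of all genes tested as higher) and TKT, ME1 and IDH1 with both compounds (3 of 9, against 7.41%). The same 3 were past this limit for both compounds against trametinib alone (7.84%). With trametinib alone none of the 9 did in PANC-1 (6.22% higher, 6.01% lower). In AsPC-1 none of the 9 was past it under any treatment, where 3.9% to 6.47% of all genes tested were higher by that factor and 7.99% to 10.9% lower. Near this limit, IDH1 with roseoflavin in PANC-1 was 24.9% above vehicle in TPM. ME1 in AsPC-1 with both compounds was 26.6% above vehicle and 25.1% above trametinib in TPM, but under the limit on TPM + 1. The comparisons with vehicle share that library and are given side by side only.

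The same lists were read in the fits of roseoflavin. None of their 75 genes tested passed the adjusted threshold for roseoflavin in either line. Of 8 other pentose phosphate genes tested, the median roseoflavin estimate in PANC-1 was 0.0044, and the smallest p belonged to RBKS, the ribokinase (0.29, limma adjusted p 0.397), and H6PD, which runs the oxidative branch in the endoplasmic reticulum (0.25, limma adjusted p 0.428). Of 10 other genes that make NADPH or phosphorylate NAD, the median was 0.07, led by the mitochondrial folate enzymes MTHFD2 (56.4 and 56.8 TPM without roseoflavin, 73.5 and 74.5 with it, limma adjusted p 0.261) and ALDH1L2 (5.31 and 5.52 TPM without, 7.20 and 7.71 with, limma adjusted p 0.386). Of 12 enzymes in and around the tricarboxylic acid cycle, which include the NAD-linked isocitrate dehydrogenase, the median was -0.02, and the smallest p belonged to IDH3B and to MDH1, cytosolic malate dehydrogenase (0.07). IDH3B was at 100 and 105 TPM without roseoflavin and 95.4 and 92.3 with it, an estimate of -0.13 against 0.35 for the NADP-linked IDH1, and their difference was not tested.

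Genes that use NADPH and genes of the NRF2 system had higher medians in PANC-1. The 13 NADPH-using reductases had a median of 0.21 there and 0.0034 in AsPC-1, and 7 of the 13 were higher at an unadjusted p under 0.05 in PANC-1, against 5.84% of all genes tested. TXNRD1, thioredoxin reductase, went from 107 and 107 TPM to 171 and 183 TPM with roseoflavin in PANC-1 (0.72, limma adjusted p 0.221), and NQO1, a quinone reductase, from 166 and 172 to 242 and 241 TPM (0.51, limma adjusted p 0.221). The 18 genes of the NRF2 system had a median of 0.31 in PANC-1 and 0.05 in AsPC-1, with 18 and 12 estimates above 0. The median over all genes tested was 0 in PANC-1 and -0.03 in AsPC-1. At an unadjusted p under 0.05, 12 of the 18 were higher in PANC-1, against 5.84% of all genes tested. In AsPC-1, 2 were higher at that level, against 2.75%. SRXN1, which repairs peroxiredoxins, went from 55.0 and 56.5 to 91.3 and 91.8 TPM in PANC-1 (0.71, limma adjusted p 0.221), and SLC7A11, the cystine importer, from 6.61 and 6.87 to 12.1 and 13.8 TPM (0.84, limma adjusted p 0.221). Estimates of these genes were above 0 in AsPC-1 as well, at 0.40 for SLC7A11 and 0.27 for SRXN1 (limma adjusted p 0.355 for both) and 0.28 for TXNRD1 (limma adjusted p 0.380), while NQO1 was at 0.0034. SLC7A11 there was at 14.0 and 12.4 TPM without roseoflavin and 18.8 and 16.7 TPM with it. The ME1 estimate of 0.84 in PANC-1 lay at the level of SLC7A11.

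The 14 glycolysis genes around the branch point had a median of 0.24 in PANC-1, with 14 estimates above 0, and -0.12 in AsPC-1, with 3 above 0. The median over all genes tested was 0 in PANC-1 and -0.03 in AsPC-1. At an unadjusted p under 0.05, 8 of the 14 were higher in PANC-1, against 5.84% of all genes tested. In AsPC-1, 6 were lower at that level, which 11.3% of all genes tested reached in either direction and 2.75% as higher. GPI, the isomerase that makes and takes up glucose 6-phosphate beside the oxidative branch, was at 267 and 272 TPM without roseoflavin and 419 and 459 TPM with it in PANC-1 (0.70, limma adjusted p 0.221). In AsPC-1 it was at 57.0 and 55.9 TPM without and 52.0 and 45.6 TPM with it. The glucose transporter SLC2A1 was at 55.1 and 55.0 TPM without and 80.0 and 83.6 TPM with it in PANC-1 (0.56, limma adjusted p 0.221). TKT, which shares its products with glycolysis, was thus higher in the same libraries as these genes in PANC-1, and in AsPC-1 its estimate was above 0 while their median was below.

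**Figure D5:**
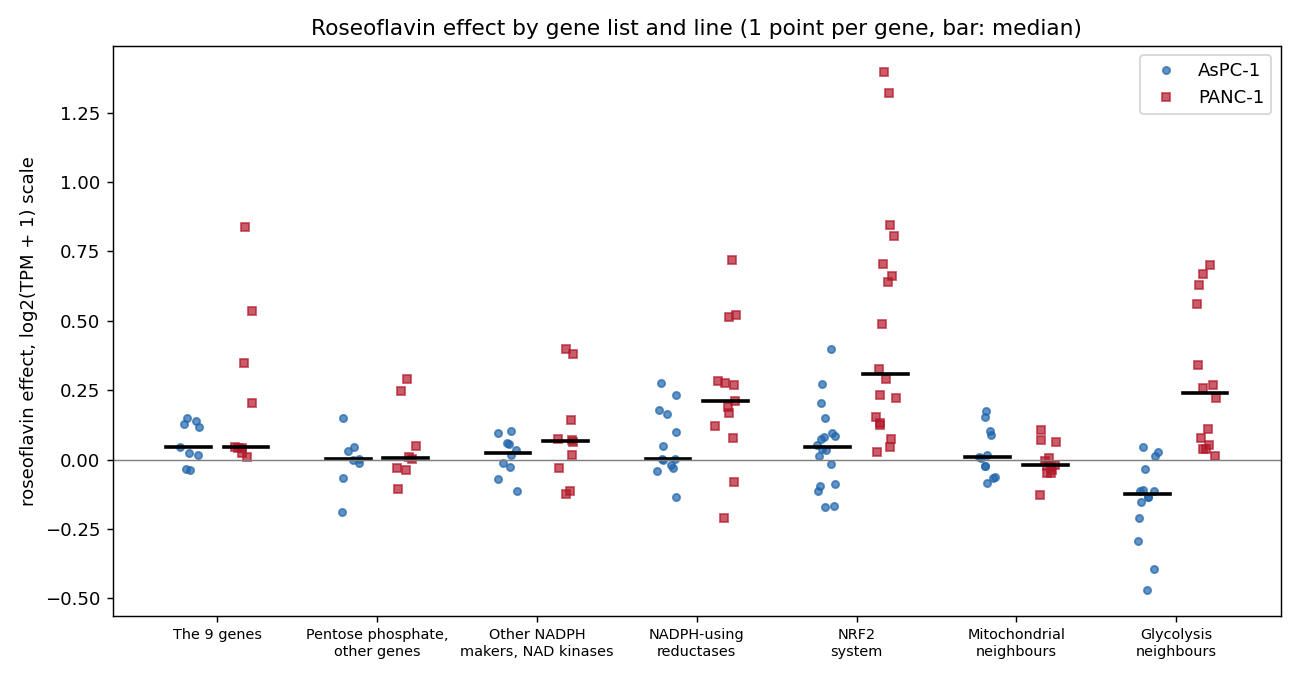
Roseoflavin effect (vertical axis, log2(TPM + 1) scale) for the 9 genes and 6 lists of neighbouring genes, with 1 point per gene, circles for AsPC-1, squares for PANC-1 and bars at the median. In PANC-1 the NRF2 system has a median of 0.31 and the glycolysis genes 0.24, while the 9 genes have a median of 0.05 with ME1 at 0.84.

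Likeness of pattern was measured as Pearson's r over the 8 libraries after centring log2(TPM + 1) within each line, among 8629 other named genes averaging 10 TPM or more. It is a description, since the libraries share treatments and the values share a total. For ME1 the most alike were SQSTM1 (r 0.998), the autophagy receptor p62, FTL (0.991), the ferritin light chain, and WBP2 (0.989). SQSTM1 was at 327 and 325 TPM without roseoflavin and 426 and 425 TPM with it in PANC-1. For TKT they were TRIM16L (0.994), FADS2 (0.987), a fatty acid desaturase, and BEX2 (0.984). In AsPC-1, TRIM16L was at 2.60 to 3.55 TPM and BEX2 at 0.174 to 0.377 TPM. Both met the limit on the mean only through PANC-1, as ME1 did. For PGD they were TADA1 (0.980), SPAG7 (0.972) and TYMP (0.961), and for TALDO1 SNRNP40 (0.984), SHC1 (0.969) and LRRC20 (0.965). Among the 8 members averaging 10 TPM or more, which leaves out ME2, the most alike pair was TKT and ME1 (r 0.976).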

How the data were processed

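The deposited table holds TPM per gene for 8 libraries, which the authors computed before deposit, and each library sums to 1000000 TPM. Per the submitters' processing notes, STAR 2.7.3a, HTSeq 2.0.2 and hg38 were used; the annotation, the strand setting and the TPM step are not given in the sources used here. Per the labels' protocols, libraries were made with a stranded kit that selects mRNA. The 985926 blank rows were dropped and digit separators removed.

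Values were analysed as log2(TPM + 1), which understates changes of low genes, for 19122 genes with at least 1 TPM in 2 libraries. Linear models came from limma 3.58.1 (R 4.3.3; eBayes with a trend), with Benjamini-Hochberg adjustment and a threshold of 0.05. Line differences and main effects came from an additive model (4 residual degrees of freedom), and effects within a line from a model with a roseoflavin and a trametinib effect for each line (2 residual degrees of freedom). The additive model counts a difference between the lines in a compound's effect as error. Neither of these models separates an interaction of the compounds from error. The interaction of the compounds was an added term. The fits were tested on simulated data. The named genes are the 9 members, the 2 genes of smallest p per list where none passed (4 where some did, here for the pentose phosphate list), and the 3 genes most alike in pattern for PGD, TKT, TALDO1 and ME1. Of 78 genes in 6 lists, 75 were tested. The members, lists and tests were chosen with earlier results of these data known. Alternatives changed the scaling, the filter, the pseudocount, the prior and the terms, or left out libraries. Coordinates are from GENCODE release 29 on GRCh38, the assembly that hg38 names.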

Additional observations from a re-analysis of the deposited data

Results flagged for a closer look

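IDH1 was the gene among the 9 whose roseoflavin changes went in opposite directions in the lines in every matched pair. In AsPC-1 it went from 98.4 to 98.0 TPM without trametinib and from 122 to 116 TPM with it, and in PANC-1 from 57.9 to 72.3 TPM and from 55.8 to 73.0 TPM. The PANC-1 effect minus the AsPC-1 effect was 0.387 on the log2(TPM + 1) scale (SE 0.0584), which did not pass over all genes tested (limma adjusted p 0.336, range 0.0289 to 0.583 over the 16 alternatives). The low end of that range came from the RefSeq mRNAs averaging 10 TPM or more, a set chosen after the data had been seen. The difference in AsPC-1 without trametinib was 0.41 TPM, and after rescaling without mitochondrial transcripts that pair went from 167 to 175 TPM instead, so the direction of that pair depended on the scaling.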

How the results depend on the processing

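Over all alternatives of the estimates printed for single members, 618 values kept their direction and side of the threshold, 15 newly passed it and 14 reversed. Of the counts of members, 174 stayed within 1.5 times and 5 did not. They leave out the counts of genes without overlap between pairs of libraries. Those changed without mitochondrial transcripts for roseoflavin in both lines and for trametinib in AsPC-1, as given above. The 174 include counts that stayed at 0, and a rise from 6 to all 9 members for the line difference. That rise was under quantile normalization and without mitochondrial transcripts. The alternatives were quantile normalization, rescaling without mitochondrial transcripts, other filters, a pseudocount of 0.1, no trend in the prior, other terms and each library left out in turn. The difference between the lines for TKT reversed to -0.26 under quantile normalization and -0.22 without mitochondrial transcripts, where the roseoflavin estimates in PANC-1 of RPIA and RPE also reversed, to -0.028 and -0.012. Among RefSeq mRNAs averaging 10 TPM or more, chosen after the data had been seen, the members past the threshold went from 0 to 3 for roseoflavin in PANC-1, from 0 to 3 for the difference between lines in the roseoflavin effect and from 0 to 1 for trametinib in AsPC-1 (this set changes both the number of tests and the prior variance; the cause was not tested). The members past the 25% limit in single libraries of AsPC-1 went from 0 to 1 for trametinib without mitochondrial transcripts (IDH1) and from 0 to 1 for both compounds with the pseudocount of 0.1 (ME1). With each library left out in turn, small estimates changed sign for both compounds. Roseoflavin in PANC-1 ranged from -0.091 to 0.11 for RPIA and from -0.029 to 0.077 for RPE (both lowest without PANC-1 trametinib or both compounds). For trametinib, RPIA in AsPC-1 ranged from -0.012 to 0.24 (lowest without AsPC-1 roseoflavin or both compounds), IDH1 in PANC-1 from -0.052 to 0.013 and PGD in PANC-1 from -0.073 to 0.071 (both highest without PANC-1 vehicle or trametinib). Roseoflavin estimates in PANC-1 then ranged from 0.46 to 0.61 for TKT, from 0.32 to 0.38 for IDH1 and from 0.13 to 0.28 for PGD, and in AsPC-1 from 0.07 to 0.19 for TKT, from 0.06 to 0.17 for PGD and from 0.02 to 0.26 for ME1. The number of members that differed between the lines was 6 or 7, and TKT passed without AsPC-1 vehicle (adjusted p 0.0425), PGD without AsPC-1 roseoflavin (0.0456) and RPIA without AsPC-1 trametinib (0.0299). Without a library, the treatment left with 1 sample is assumed to vary like the others. The unknown depth limits the low values of ME1 and ME2 in AsPC-1. No paired analysis was possible because no replicate numbers are shared between groups in the labels; the models themselves compare libraries matched for line and for the other compound.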
